A study of Mus musculus with 123 samples.

Results

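*Gdpd3*, *Miox*, *Ctse*, *Cyp46a1*, *Ntrk2* and *Lyplal1* are 6 genes whose expression in liver differed between strains of the Collaborative Cross (CC), a panel of recombinant inbred mouse strains bred from a fixed set of inbred founders. They were chosen by their measured strain values, so the strain values below are a description without a test, and only the diet values are tested. Each gene was represented by its transcript cluster, the group of array probes that reads 1 gene. The members were 6 of 22180 genes with 1 symbol on the array, and all 6 were among the 10942 genes that passed the expression filter, which asked for values above 4.08 (log2) in more than 12.5% of mice. *Gdpd3* (cluster 17483098, chromosome 7), *Miox* (17314120, chromosome 15), *Ctse* (17217035, chromosome 1), *Cyp46a1* (17278543, chromosome 12), *Ntrk2* (17287901, chromosome 13) and *Lyplal1* (17230823, chromosome 1) each had 1 cluster. *Gdpd3* and *Miox* passed the filter through few mice, since only 23 and 24 mice were above it. *Ctse* was above it in 87 mice, *Ntrk2* in 73, *Cyp46a1* in 120 and *Lyplal1* in every mouse.

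The livers came from 63 female mice fed a high-protein (HP) diet and 60 fed a high-fat high-sucrose (HS) diet, of 22 CC strains. The mice arrived at 6 to 9 weeks of age, ate a synthetic chow (AIN-76A) for 2 weeks, were fed HP or HS for 8 weeks and were fasted for 4 h before the liver was taken. Each strain had 4 to 6 mice and each diet within a strain 2 or 3, with only 2 in 9 of these groups. Neither diet group was a chow control, and each strain is 1 inbred genome.

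Values are log2 intensities, on which a difference of 1 is a doubling, and an intensity of 1 gene is not set against that of another. All but 1 mouse were closest to their own strain across genes. The exception, an HS mouse labelled CC059/TauUnc, had a correlation of 0.127 with the rest of its strain and of 0.738 with CC035/Unc. *Xist*, which female cells transcribe from the silenced X chromosome, was 2.72 in an HP mouse of CC071/TauUnc and 9.16 to 10.6 in all others. In 4 mice the pancreatic enzyme genes *Cpa1*, *Cela1* and *Ctrb1* were all above the filter threshold, with *Ctrb1* at 5.88 to 12.1, against a median of 2.87 in the others. All 10 measured hepatocyte markers passed the filter, and *Alb* had a median of 13.2.

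In a CC strain each locus comes from 1 founder, so that strains fall into groups that share a founder allele, and the founder alleles at these genes were not analysed here. *Gdpd3* encodes a phosphodiesterase of the endoplasmic reticulum that releases lysophosphatidic acid and N-acylethanolamines from lysophospholipids. *Miox*, myo-inositol oxygenase, opens the inositol ring to glucuronate and is best known from the kidney tubule. *Ctse* encodes cathepsin E, an aspartic protease of endosomes known from the stomach and from immune cells. *Cyp46a1*, cholesterol hydroxylase, turns cholesterol into an oxysterol that can leave the brain and is known from neurons. *Ntrk2* encodes TrkB, the receptor tyrosine kinase of brain-derived neurotrophic factor. *Lyplal1* encodes a lysophospholipase-like hydrolase related to the acyl-protein thioesterases, and its locus is known in humans from association studies of fat distribution.

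The promoters of *Miox*, *Gdpd3* and *Cyp46a1*, the 3 genes with the widest strain gaps, are shown as the region where transcription of each starts. RefSeq promoters on GRCm38.p6, 300 bases around the start of the gene, matched 5 of the 6 genes, all but *Ctse*. They are those of the reference strain, not of the CC strains. Both strands were searched, and capitals mark the TATA box TATAAA, the GC box GGGCGG and the CCAAT box, which reads ATTGG where it lies on the other strand.
*Miox* (chr15:89334223-89334522, + strand): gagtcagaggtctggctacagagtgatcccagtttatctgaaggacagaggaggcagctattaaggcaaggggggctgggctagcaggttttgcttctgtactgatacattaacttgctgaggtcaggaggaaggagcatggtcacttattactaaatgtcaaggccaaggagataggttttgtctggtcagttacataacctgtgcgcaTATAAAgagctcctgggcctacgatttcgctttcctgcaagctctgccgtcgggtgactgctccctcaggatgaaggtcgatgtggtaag
*Gdpd3* (chr7:126766164-126766463, + strand): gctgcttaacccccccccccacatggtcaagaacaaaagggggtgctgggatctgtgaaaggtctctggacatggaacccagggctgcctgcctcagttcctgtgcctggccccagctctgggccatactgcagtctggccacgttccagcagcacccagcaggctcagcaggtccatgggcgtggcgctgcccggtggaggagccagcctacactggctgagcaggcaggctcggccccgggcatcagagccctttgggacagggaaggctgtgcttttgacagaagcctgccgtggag
*Cyp46a1* (chr12:108334066-108334365, + strand): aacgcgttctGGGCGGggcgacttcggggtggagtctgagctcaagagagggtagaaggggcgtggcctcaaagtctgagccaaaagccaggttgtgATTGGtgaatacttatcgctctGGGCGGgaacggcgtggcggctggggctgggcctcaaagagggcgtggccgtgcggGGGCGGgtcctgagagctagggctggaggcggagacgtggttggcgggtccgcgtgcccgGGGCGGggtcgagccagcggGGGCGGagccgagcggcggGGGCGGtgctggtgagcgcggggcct

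The *Miox* promoter held TATAAA on its own strand, starting 40 bases before the start of the gene, and none of the other motifs. TATAAA was present on either strand in 13.6% of 32851 promoters of the same length and on the strand of the gene in 8.32%. The *Cyp46a1* promoter held 6 copies of GGGCGG on its own strand and 1 CCAAT on the other, and 70.3% of its bases were G or C. GGGCGG was present in 35.7% of all promoters and CCAAT in 37.4%. The *Gdpd3* promoter held none of the 3 motifs and was 64.3% G or C. The promoters of *Ntrk2* and *Lyplal1* each held 1 GGGCGG on their own strand.

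*Gdpd3* was at 2 separate levels, with a further step inside the upper one. In CC041/TauUnc its values were 8.83, 8.39 and 8.74 in HP mice and 8.25 and 8.89 in HS mice, with a strain mean of 8.62 ± 0.28 (SD, n = 5). CC030/GeniUnc, CC032/GeniUnc and CC040/TauUnc followed at strain means of 7.25, 7.13 and 7.10 (n = 6 each). The other 18 strains had means of 2.84 (CC045/GeniUnc) to 3.32 (CC063/Unc). The widest gap between neighbouring strain means was 3.78, which was 11.5 times the SD of 0.33 between mice of a strain. Its lower side was below the filter threshold and near the array medians of 2.97 to 3.16, so it is a difference of intensities and no fold of RNA is given. The 23 mice of the 4 strains lay between 6.57 and 8.89 and the 100 mice of the other 18 between 2.10 and 3.76, without overlap. A second step of 1.37 separated CC041/TauUnc from CC030/GeniUnc, and no mouse of the other 3 upper strains, highest at 7.70, reached the lowest CC041/TauUnc mouse. Of the 21 pairs of neighbours in the order of strains, 19 were closer than the SD within strain.

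*Miox* had the widest gap of the 6 genes. CC036/Unc, CC032/GeniUnc and CC040/TauUnc had means of 8.28 ± 0.23, 8.13 ± 0.30 and 8.12 ± 0.25 (SD, n = 6 each), and the other 19 strains had means of 2.85 (CC030/GeniUnc) to 3.87 (CC028/GeniUnc). In CC036/Unc the values were 7.96, 8.57 and 8.35 in HP mice and 8.46, 8.12 and 8.23 in HS mice. The gap of 4.26 in intensity, again down to a level below the filter threshold, was 12.01 times the SD within strain of 0.35. All 18 mice of the 3 upper strains were at 7.72 or above and all 105 mice of the others at 4.66 or below. Within the lower strains the means of CC028/GeniUnc (3.87), CC004/TauUnc (3.82) and CC006/TauUnc (3.61) were the highest, and their mice ran from 3.07 to 4.66, overlapping those of other lower strains. The 3 upper strains differed from each other by less than the SD within strain.

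**Figure D1:**
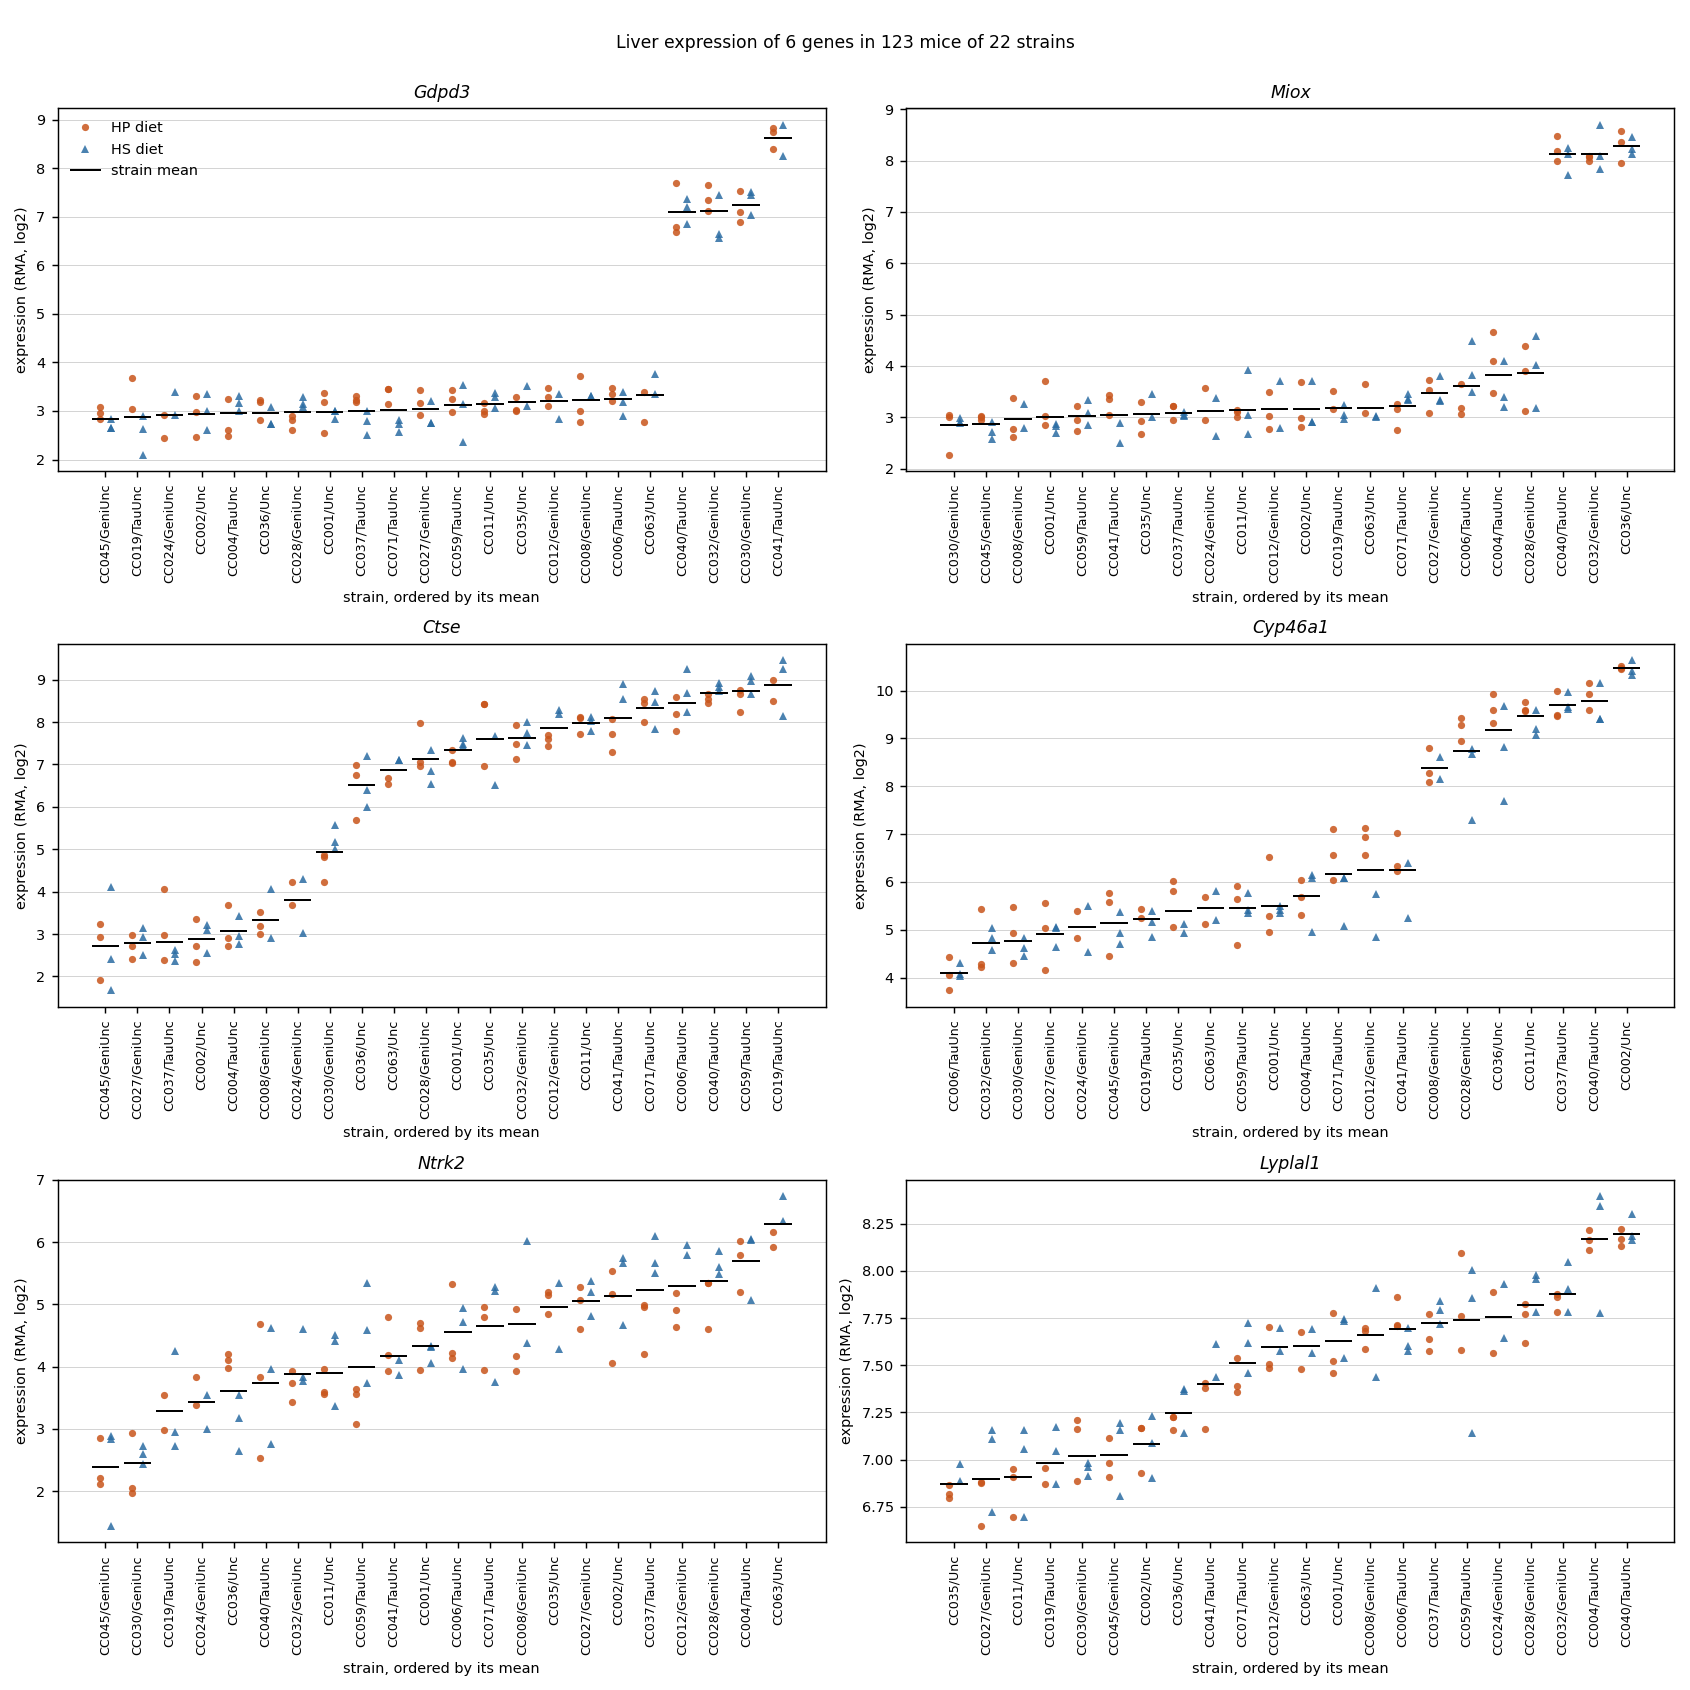
Expression of each gene (RMA, log2, vertical axes, each with its own range) in every mouse by strain, ordered by strain mean, with HP mice as circles, HS mice as triangles and a bar at the strain mean. *Gdpd3* and *Miox* show 4 and 3 strains far above the rest, *Ctse* and *Cyp46a1* a step with graded strains on both sides, and *Ntrk2* and *Lyplal1* a slope.

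*Ctse* had 14 strains above its widest gap and 8 below. The highest was CC019/TauUnc at 8.87 ± 0.54 (SD, n = 5), with values of 8.49 and 8.99 in HP mice and 9.25, 8.14 and 9.45 in HS mice. The upper strains ran down to CC036/Unc at 6.50 ± 0.59 (n = 6), and the lower ones from CC030/GeniUnc at 4.94 ± 0.45 (n = 6) to CC045/GeniUnc at 2.71 ± 0.90 (n = 6). The gap of 1.56, or 2.95-fold, was 3.21 times the SD within strain of 0.49. The lowest mouse of the upper strains was at 5.69 and the highest of the lower strains at 5.58, so that the 2 sets of mice did not overlap but were separated by less than that SD. CC030/GeniUnc stood between the levels, 1.13 above CC024/GeniUnc at 3.81, and the other 6 lower strains had means of 2.71 to 3.33. The 14 upper strains were themselves graded, each closer to its neighbour than the SD within strain.

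*Cyp46a1* was highest in CC002/Unc, at 10.47, 10.51 and 10.45 in HP mice and 10.41, 10.33 and 10.63 in HS mice. The 6 values had a mean of 10.47 and an SD of 0.10, smaller than the SD within strain of 0.51 over all strains. CC040/TauUnc (9.78), CC037/TauUnc (9.70), CC011/Unc (9.47), CC036/Unc (9.17), CC028/GeniUnc (8.74) and CC008/GeniUnc (8.39) completed the 7 upper strains. The other 15 had means of 6.25 (CC041/TauUnc) to 4.10 (CC006/TauUnc). The gap between CC008/GeniUnc and CC041/TauUnc was 2.14, or 4.42-fold, and 4.24 times the SD within strain. The 41 mice of the upper strains were at 7.30 or above and the 82 of the others at 7.12 or below, so the margin between single mice was narrow. The 2 mice nearest to it were an HS mouse of CC028/GeniUnc at 7.30 and an HP mouse of CC012/GeniUnc at 7.12.

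*Ntrk2* was graded. CC063/Unc was highest at 6.29 ± 0.34 (SD, n = 4), with 5.92 and 6.16 in HP mice and 6.34 and 6.74 in HS mice, and CC045/GeniUnc was lowest at 2.39 ± 0.58 (n = 6). The strain means covered 3.90 in intensity, the lowest of them below the filter threshold. The widest gap was only 0.84 and lay at the low end, between CC019/TauUnc at 3.29 and CC030/GeniUnc at 2.45. It was 1.50 times the SD within strain of 0.56, the largest such SD of the 6 genes, and the mice on its 2 sides overlapped, at 2.52 and above against 2.93 and below. Strain accounted for 78.1% of the variance of *Ntrk2* between mice, the lowest share of the 6 genes, and for 95.1% to 97.2% in the 4 genes described before it.

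*Lyplal1* was graded over a smaller range. Its strain means went no higher than 8.20 (CC040/TauUnc) and 8.17 (CC004/TauUnc) and no lower than 6.87 (CC035/Unc), a range of 1.33, or 2.51-fold. In CC040/TauUnc the values were 8.22, 8.17 and 8.13 in HP mice and 8.30, 8.18 and 8.17 in HS mice, and in CC035/Unc they were 6.80, 6.86 and 6.82 in HP mice and 6.89 and 6.98 in HS mice. The mice of these 2 strains did not overlap. The widest gap was 0.29, below CC040/TauUnc and CC004/TauUnc, and mice on its 2 sides overlapped. The SD within strain was 0.16, so that this gap was 1.87 times as wide. *Lyplal1* was above the filter threshold in every mouse of every strain. The HS mouse labelled CC059/TauUnc that was closest to CC035/Unc across genes had 7.14, outside the 7.58 to 8.09 of the other CC059/TauUnc mice and above the 6.80 to 6.98 of CC035/Unc.

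A gene was described as having 2 levels where its widest gap was at least 1 (log2) and the mice on its 2 sides did not overlap. Only the widest gap counts, so the second step of *Gdpd3* (1.37) is left aside. *Gdpd3*, *Miox*, *Ctse* and *Cyp46a1* met this description and *Ntrk2* and *Lyplal1* did not. Over all genes that passed the filter, 0.996% of 10942 met it, and the median widest gap was 0.15. Since the members were chosen by their strain values, neither their count nor their ranks are a result, and the ranks only describe where they lie. By its widest gap *Miox* ranked 6, *Gdpd3* 14, *Cyp46a1* 49, *Ctse* 88, *Ntrk2* 316 and *Lyplal1* 2104 of 10942 genes. By the range of its strain means *Cyp46a1* ranked 25, *Ctse* 32, *Gdpd3* 38, *Miox* 45 and *Lyplal1* 1690, with *Ntrk2* between *Miox* and *Lyplal1*.

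**Figure D2:**
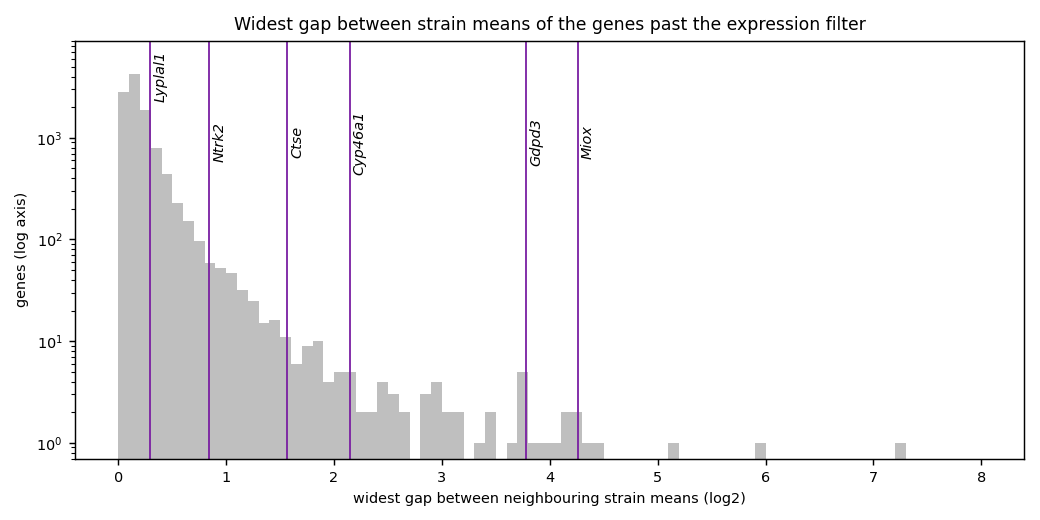
Number of genes (log axis) by the widest gap between neighbouring strain means (log2, bins of 0.1), over the 10942 genes past the filter, with a line at each of the 6 genes. *Miox* (4.26) and *Gdpd3* (3.78) lie in the sparse right tail and *Lyplal1* (0.29) within the bulk. The genes were chosen by their strain values, so their places are a description.

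The strain sets of the 4 genes with 2 levels differed. CC040/TauUnc was above the gap in all 4, CC032/GeniUnc in *Gdpd3*, *Miox* and *Ctse*, and CC036/Unc in *Miox*, *Ctse* and *Cyp46a1*. A further 3 strains were above it in 2 genes, 12 in 1 gene and 4 in none (CC004/TauUnc, CC024/GeniUnc, CC027/GeniUnc and CC045/GeniUnc). CC004/TauUnc, low in all 4, was second in *Ntrk2* and in *Lyplal1*. Over the 22 strain means the 15 pairs of genes had Pearson r of -0.33 (*Gdpd3* and *Ntrk2*) to 0.38 (*Gdpd3* and *Miox*), given as a description of strains that share founders.

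**Figure D3:**
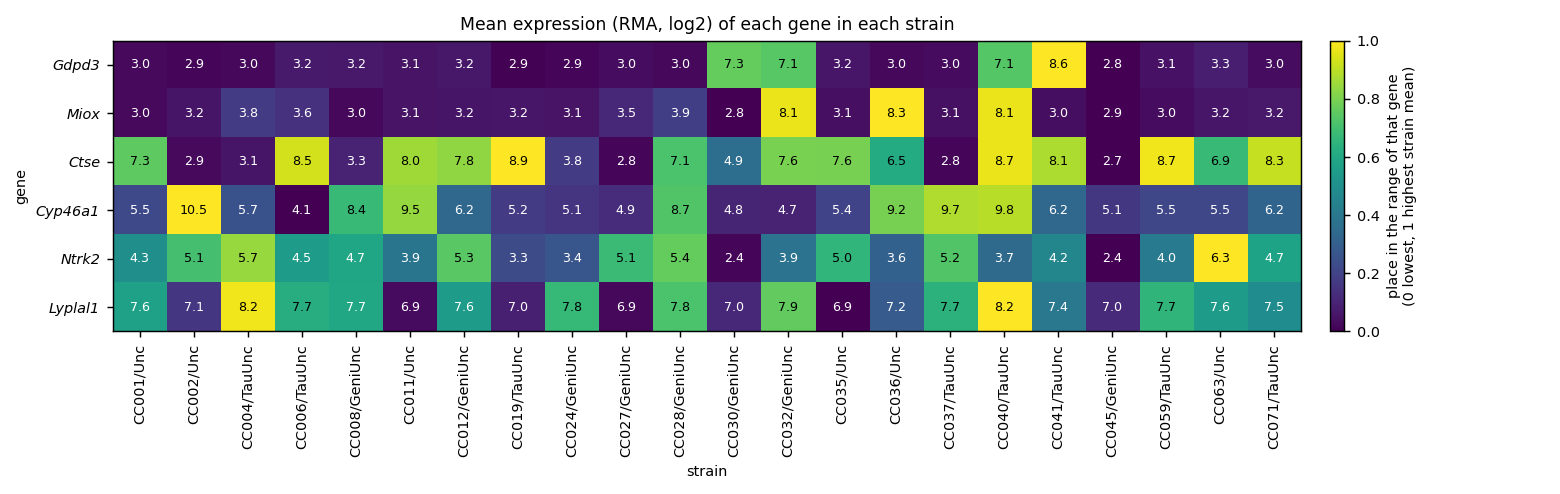
Strain means (RMA, log2, printed in each cell) of the 6 genes (rows) in the 22 strains (columns), coloured by the place of the strain within the range of that gene. The bright cells fall in different strains for each gene, and CC040/TauUnc is in the upper set of *Gdpd3*, *Miox*, *Ctse* and *Cyp46a1*.

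Because each sample was bulk liver, fewer cells of a type and less RNA per cell cannot be told apart, and markers of other tissues are given beside the strain levels. None of the 9 measured kidney markers passed the filter, and their mean level was 2.34 to 2.39 in the 3 strains high in *Miox* and 2.27 to 2.53 in the other 19. Of 10 measured markers of stomach and pancreas, *Tff1* and *Cela1* passed, and the mean of the list was 2.50 to 3.16 in the strains high in *Ctse* and 2.57 to 2.98 in the others. The highest list mean, 3.16, was that of CC019/TauUnc, which is also the strain highest in *Ctse* and holds the mouse with *Ctrb1* at 12.1. Without the 4 mice with pancreatic enzyme genes the widest gap of *Ctse* was 1.56. None of these mice was of CC036/Unc or CC030/GeniUnc, whose means set that gap, so leaving them out could not narrow it and decides nothing. Of 9 measured markers of neurons and glia only *Syt1* passed, and the list mean was 2.63 to 2.86 in the strains high in *Cyp46a1* and 2.64 to 2.93 in the others. All 10 markers of Kupffer cells passed, with list means of 6.89 to 7.67 in the strains high in *Ctse* and 6.55 to 7.78 in the others. B and T cell markers, of which 3 of 7 passed, averaged 2.97 to 3.95 in the strains high in *Ctse* and 2.76 to 3.53 in the others. Across the 22 strain means *Ntrk2* had r = -0.47 with the neuron and glia list, its largest in size over the 9 lists, and *Lyplal1* had its largest, -0.45, with the hepatocyte list. Their part in the strain levels was not tested.

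For each member, the 3 genes with the highest r of strain means were picked from all genes past the filter. Such a search over 22 strains returns high r in any case. No r to expect from it is given, so the genes below are a description. *Sec23ip*, which acts at exit sites of the endoplasmic reticulum and lies on the same chromosome as *Gdpd3*, had r = 0.91 with it over 22 strains, with strain means of 7.03 to 7.81. Spearman's rho, which goes by the order of strains alone, was 0.37. For *Miox* the 3 highest were *Cpne8* (r = 0.84), *Arsa* (0.75), which encodes a lysosomal sulfatase, and *Odf3b* (0.71), all on chromosome 15. Their rho was lower, at 0.26, 0.52 and 0.32. *Pm20d1*, an enzyme of N-acyl amino acids on chromosome 1, had r = 0.86 with *Ctse*, with strain means of 10.6 in CC019/TauUnc and 8.72 in CC027/GeniUnc. The 3 genes nearest to *Cyp46a1* were *Fam135a* (0.67), *Serpina3n* (0.62), a serine protease inhibitor on chromosome 12, and *Vmn1r53* (0.61). The highest for *Ntrk2* were *Fbxl21* (0.73) and *Naa35* (0.71), both on chromosome 13, and *Rab1a* (0.70), a GTPase of secretory traffic. Those for *Lyplal1* were *Cep20* (0.80), *Hnmt* (0.72), the histamine methyltransferase, and *Efr3a* (0.71), all on other chromosomes. For *Ctse*, *Atxn7l3b* (0.77) and *Uvssa* (0.76), and for *Gdpd3*, *Ap1m1* (0.66) and *Mir3067* (0.66), also lay on other chromosomes. None of these 18 genes had the same strains above its own widest gap as the member it is listed for.

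The measured genes on either side of each member differed in how far their strain means followed it. On either side of *Gdpd3*, *Coro1a* had r = 0.20 and *Ypel3* r = 0.06 with it, and their strain means ran from 3.85 to 4.68 and from 5.50 to 6.21. *Sult1a1*, a phenol sulfotransferase 3 genes away, had r = 0.41. Beside *Miox*, *Adm2* stayed below the filter (r = 0.54) and *Lmf2*, a lipase maturation factor, had r = 0.36. Beside *Ctse*, *Avpr1b* and *Rab7b* stayed below the filter, while *Srgap2* (r = 0.64) and *Pm20d1* (r = 0.86), each 3 genes away, passed it. *Eml1*, a microtubule-associated protein gene next to *Cyp46a1*, had r = -0.82, with its lowest strain mean, 3.51, in CC040/TauUnc and its highest, 4.87, in CC063/Unc. *Ccdc85c*, 2 genes away on the other side, had r = -0.68. Beside *Ntrk2*, *Agtpbp1* had r = 0.04 and *Naa35*, 2 genes away, r = 0.71, and beside *Lyplal1*, *Tgfb2* had r = 0.17 and *Eprs*, 3 genes away, r = 0.58.

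**Figure D4:**
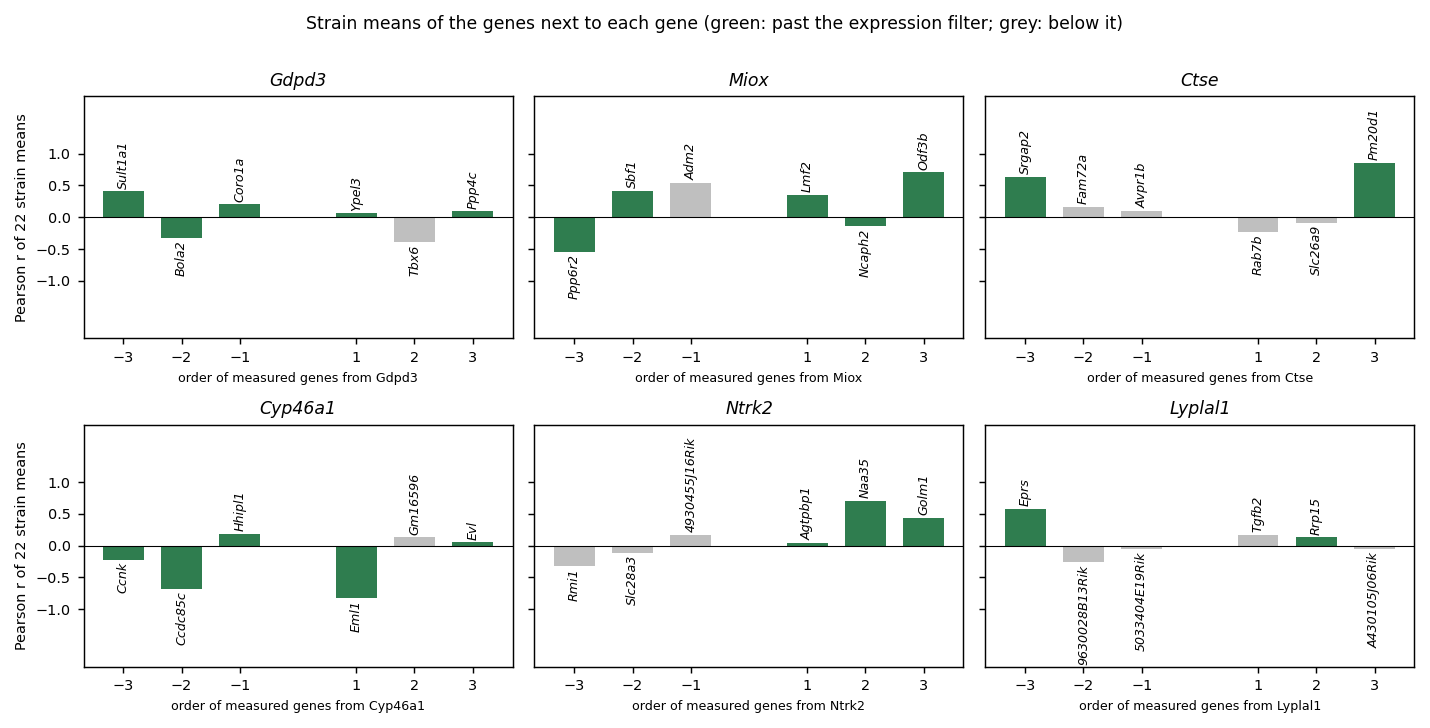
Pearson r over 22 strain means (vertical axes) between each gene and the 3 measured genes on either side of it in RefSeq order (horizontal axes, in genes), green where the neighbour passed the filter and grey where it did not. *Pm20d1* (0.86) and *Eml1* (-0.82) have the bars of largest size.

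The diets were then compared, which asks whether a dietary difference moves genes whose level is set apart by strain. With diet as the only term, limma called 0 of the 6 genes and 1248 of 10942 genes (11.4%) at an adjusted p under 0.05. In that fit the strain levels, for which the 6 genes were chosen, count as spread between mice. The SE was 0.32 to 0.43 for *Gdpd3*, *Miox*, *Ctse* and *Cyp46a1*, so 0 called cannot decide whether diet moved them. When strain entered as a block, which removes the strain levels, these SE were 0.059 to 0.086. Limma then called 1 of the 6 genes and 2544 of 10942 genes (23.2%). At an unadjusted p under 0.05 there were 0 of the 6 with diet alone and 3 with the block. Genes called after adjustment are also under that threshold, so at least 11.4% of all genes were with diet alone and at least 23.2% with the block. The full share is not given, so these counts are not a result about the members.

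*Cyp46a1* was the gene called with strain as a block. Its values ran from 3.73 through a median of 6.03 to 10.5 in 63 HP mice and from 4.03 through a median of 5.46 to 10.6 in 60 HS mice. Both diets covered both levels of the gene and overlapped almost throughout. The means were 6.83 ± 2.10 on HP and 6.53 ± 2.06 on HS (SD, n = 63 and 60), a difference of 0.31 ± 0.37 (SE, adjusted p = 0.66 by limma with diet alone). With strain as a block the difference was 0.29 ± 0.086 (SE, 95% interval 0.12 to 0.46, adjusted p = 0.0070), and HP means were higher in 16 of 22 strains. CC012/GeniUnc had 6.93, 7.12 and 6.55 in HP mice and 4.85 and 5.74 in HS mice, a difference of 1.57 and the largest of the 22. CC036/Unc had 9.60, 9.31 and 9.92 on HP and 7.69, 8.82 and 9.69 on HS, with overlap, and CC028/GeniUnc had 8.96, 9.43 and 9.28 on HP and 7.30, 8.68 and 8.79 on HS, without overlap. CC002/Unc, the highest strain, differed by 0.02 between diets. Leaving out each strain in turn gave 0.24 to 0.32 with adjusted p of 0.0043 to 0.028, and without the 4 mice with pancreatic enzyme genes it was 0.29 (adjusted p = 0.013).

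The other 5 genes missed the threshold under both fits. *Ntrk2* ran from 1.97 through 4.20 to 6.16 in HP mice and from 1.44 through 4.46 to 6.74 in HS mice, and its difference with strain as a block was -0.23 ± 0.098 (SE, 95% interval -0.42 to -0.03, adjusted p = 0.080), with lower HP means in 15 of 22 strains. The largest difference was that of CC059/TauUnc (-1.14), whose HS mouse closest to CC035/Unc had 5.35, against 3.07 to 4.58 in the other mice of that label. Without this mouse *Ntrk2* still missed the threshold. CC036/Unc had the largest difference the other way, with 3.98, 4.11 and 4.21 on HP and 2.64, 3.18 and 3.54 on HS. Leaving out each strain in turn gave -0.29 to -0.18 with adjusted p of 0.023 to 0.18. The lowest, which passed the threshold, was without CC036/Unc (-0.29, adjusted p = 0.023). *Lyplal1* lay at 6.65 to 8.22 with a median of 7.50 in HP mice and at 6.69 to 8.40 with a median of 7.58 in HS mice, and differed by -0.06 ± 0.028 (SE, 95% interval -0.11 to -0.0017, adjusted p = 0.13), with lower HP means in 18 of 22 strains. CC059/TauUnc had its largest difference the other way (0.14). Without the HS mouse of that label that was closest to CC035/Unc the difference over all strains was -0.07 (adjusted p = 0.036). Leaving out each strain in turn gave adjusted p of 0.045 to 0.21 for *Lyplal1*. *Ctse*, at 1.91 to 8.99 with a median of 7.06 in HP mice and at 1.67 to 9.45 with a median of 7.27 in HS mice, differed by -0.14 ± 0.086 (SE, 95% interval -0.31 to 0.03, adjusted p = 0.25) and had lower HP means in 17 of 22 strains. CC041/TauUnc had the largest difference of *Ctse*, -1.03, with 7.28, 8.06 and 7.73 on HP and 8.56 and 8.89 on HS, which did not overlap. The medians of *Gdpd3* were 3.21 on HP and 3.12 on HS and those of *Miox* 3.19 on HP and 3.21 on HS, all at the low level of the gene. *Gdpd3* differed by 0.07 ± 0.059 (SE, 95% interval -0.04 to 0.19, adjusted p = 0.40) and *Miox* by 0.02 ± 0.064 (SE, 95% interval -0.11 to 0.15, adjusted p = 0.86), with HP means higher in 12 and 10 of 22 strains.

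**Figure D5:**
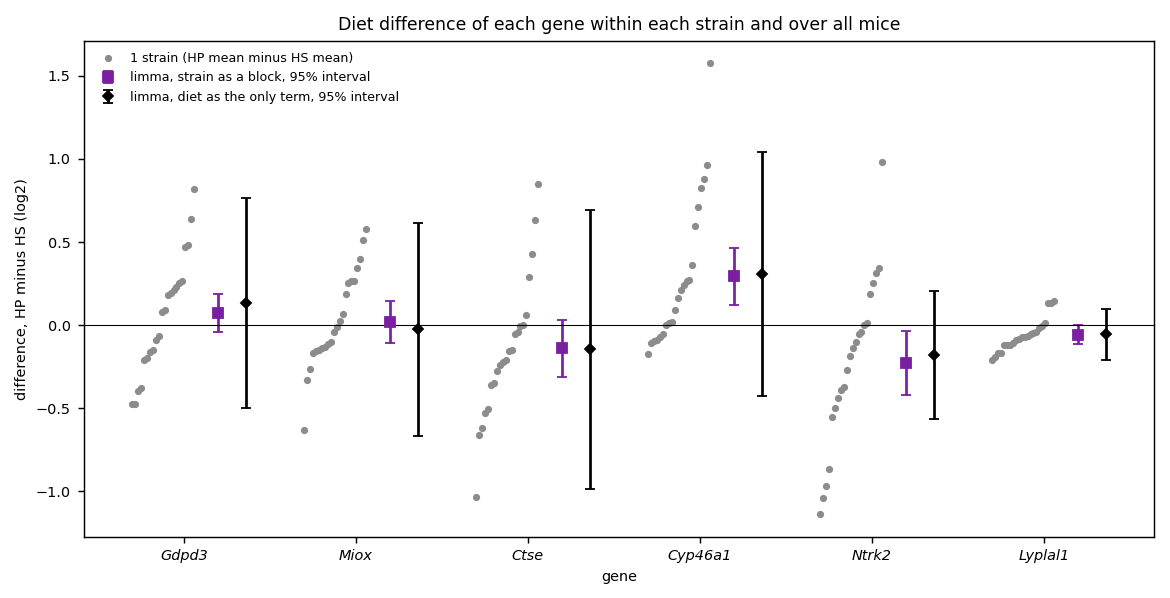
Difference between diets (HP minus HS, log2, vertical axis) of the 6 genes, with a grey point per strain, a square for the limma estimate with strain as a block and a diamond for diet as the only term, both with 95% intervals. The interval of *Cyp46a1* with strain as a block, 0.12 to 0.46, lies above 0, and those with diet alone are wider for each gene.

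No gene of the 6 was called for an interaction of strain and diet by limma, against 2 of 10942 genes (0.0183%). Before adjustment 1 of the 6, *Gdpd3*, was under 0.05 (F = 1.88, adjusted p = 0.95), and no share of all genes is given for that. For *Gdpd3* the diet differences of single strains ran from -0.47 in CC063/Unc to 0.82 in CC019/TauUnc, both of them strains at the low level. Its 4 upper strains had differences of 0.08 (CC041/TauUnc), -0.16 (CC030/GeniUnc), 0.48 (CC032/GeniUnc) and -0.09 (CC040/TauUnc). The strain sets were set against diet too. Strain means of HP and of HS mice correlated at r = 0.98 for *Gdpd3* and *Cyp46a1*, 0.99 for *Miox* and *Ctse*, 0.97 for *Lyplal1* and 0.89 for *Ntrk2* over 22 strains. Mice of both diets supplied the strain values by which the genes were chosen, so a high r follows from the choice. No r of other genes is given beside it. The strains above the widest gap were the same in HP and in HS mice for *Gdpd3*, *Miox*, *Cyp46a1* and *Lyplal1*. In HS mice the widest gap of *Ctse* lay a strain lower, so that CC030/GeniUnc joined the upper 14, and that of *Ntrk2* lay below CC063/Unc alone.

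The other genes of each pathway were measured beside the members. All genes tested set the background, of which 8897 of 10942 (81.3%) were called by strain in limma's F test. By diet alone 687 of all genes were higher on HP and 561 lower, or 11.4% called. With strain as a block 1262 were higher and 1282 lower, or 23.2%. Whether a list differed from this background was not tested. Of 10 tested enzymes of N-acylethanolamines and phospholipids, 10 were called by strain, led by *Faah* (strain means 7.84 to 8.84), which degrades N-acylethanolamines. By diet alone 2 were higher on HP and 0 lower. *Gpcpd1*, a glycerophosphocholine phosphodiesterase, rose on HP by 0.41 ± 0.11 (SE, adjusted p = 0.0042) and *Gde1*, a phosphodiesterase related to *Gdpd3*, by 0.16 ± 0.056 (adjusted p = 0.043). In the fit with strain as a block 2 were higher and 3 lower. The lower ones were *Naaa*, which also degrades N-acylethanolamines, at -0.16 (adjusted p = 4.8e-04), *Gdpd1*, a close relative of *Gdpd3*, at -0.21 (adjusted p = 0.0087) and *Pla2g4a*, a phospholipase A2, at -0.15 (adjusted p = 0.037).

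Of 12 tested genes of inositol and glucuronate metabolism, 11 were called by strain, and *Gulo*, the last enzyme of ascorbate synthesis, *Impa1* and *Inpp1*, phosphatases of inositol phosphates, had the largest F. *Ippk*, an inositol phosphate kinase, was not called (adjusted p = 0.11). By diet 3 were higher on HP and 0 lower. *Ugdh*, which makes UDP-glucuronate, averaged 8.99 ± 0.52 on HP and 8.53 ± 0.52 on HS (adjusted p = 1.1e-04) and had higher HP means in 22 of 22 strains. *Dcxr*, an enzyme downstream of glucuronate, averaged 7.64 ± 0.21 on HP and 7.32 ± 0.21 on HS (adjusted p = 2.7e-10), and *Cryl1* was higher on HP by 0.28 ± 0.061 (SE, adjusted p = 5.4e-04). *Miox* itself, in the same pathway, had a difference of -0.03 ± 0.32 (SE, adjusted p = 0.97) in that fit, where its strain levels count as spread. With strain as a block the difference of *Miox* was 0.02 ± 0.064 (SE, adjusted p = 0.86), and 105 mice were at its low level. The block on strain added *Gulo*, at -0.12 (adjusted p = 2.9e-04).

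Of 17 tested cathepsins and other aspartic or lysosomal proteases and their inhibitors, 17 were called by strain. *Cst3*, cystatin C, ranged from 8.80 (CC035/Unc) to 6.97 (CC004/TauUnc) and *Bace2*, an aspartic protease, from 6.34 (CC071/TauUnc) to 4.19 (CC028/GeniUnc). By diet *Ctsl*, cathepsin L, was the 1 gene called, with 10.6 ± 0.27 on HP and 10.3 ± 0.27 on HS (adjusted p = 3.3e-06) and higher HP means in 22 of 22 strains. The block on strain added *Lgmn*, legumain, a lysosomal cysteine protease, at -0.17 (adjusted p = 0.0020).

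Of 15 tested genes of oxysterol, bile acid and cholesterol handling, 14 were called by strain, all but *Apoe* (adjusted p = 0.18). *Cyp39a1*, which hydroxylates the oxysterol that Cyp46a1 makes, ranged from 8.50 (CC001/Unc) to 3.66 (CC045/GeniUnc). *Cyp7b1*, another oxysterol hydroxylase, ranged from 10.3 (CC063/Unc) to 5.85 (CC008/GeniUnc). By diet alone limma called 0 of 15, with 1 at an unadjusted p under 0.05. With strain as a block 3 were higher on HP and 1 lower. They were *Cyp39a1* at 0.56 ± 0.089 (SE, adjusted p = 5.0e-07), *Cyp27a1*, the sterol side chain hydroxylase, at 0.12 ± 0.032 (adjusted p = 0.0048), the sterol exporter *Abcg5* at 0.12 ± 0.043 (adjusted p = 0.035) and *Cyp7b1* at -0.30 ± 0.078 (adjusted p = 0.0026).

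Of 10 tested genes of neurotrophin receptors, sorting receptors and signalling, 8 were called by strain, all but the adaptors *Shc1* and *Grb2* (adjusted p = 0.45 and 0.078). *Sorl1*, a sorting receptor, ranged from 6.30 (CC030/GeniUnc) to 3.22 (CC040/TauUnc), and *Sort1*, sortilin, from 7.01 (CC027/GeniUnc) to 4.77 (CC045/GeniUnc). By diet alone limma called 0 of 10, with 0 at an unadjusted p under 0.05, and with strain as a block *Sort1* differed by -0.22 ± 0.064 (SE, adjusted p = 0.0063). Of 18 tested thioesterases, lysophospholipases and related lipases, 16 were called by strain, all but *Lypla2* and *Abhd17a* (adjusted p = 0.27 and 0.13). *Ppt2*, a lysosomal thioesterase, ranged from 7.08 (CC035/Unc) to 6.22 (CC008/GeniUnc). By diet *Mgll*, monoacylglycerol lipase, averaged 7.66 ± 0.41 on HP and 7.91 ± 0.35 on HS (adjusted p = 0.0081), and *Pnpla8*, a mitochondrial phospholipase, was higher on HP by 0.11 ± 0.035 (SE, adjusted p = 0.026). Blocking on strain, 2 of the 18 were higher on HP, *Pnpla8* and *Pnpla2*, and 3 lower, *Mgll*, *Ppt1* and *Pla2g15*.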

How the data were processed

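RNA from the liver of each female CC mouse was hybridised to 1 Affymetrix Mouse Gene 2.1 ST array. The authors deposited log2 values made by RMA (background correction, quantile normalization and probe summary over all arrays), per the labels with Affymetrix Expression Console. Versions and genome build were not given in the sources used here. Array medians were 2.97 to 3.16. The precision is limited by the number of mice, since an array gives no depth of reading. Base differences between strains under the probes were not checked, so they and differences in RNA level cannot be told apart.

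Of 41345 clusters, 23521 had 1 symbol in the platform annotation, 1820 had several and 16004 none, and clusters without a single symbol were left out. The brightest cluster per gene was kept where more than 12.5% of mice were above 4.08 (the mean of the medians of the clusters with 1 symbol), which left 10942 genes. Strain and diet came from the labels, and 0 columns had no mouse. P-values set a difference against the spread between these mice. With diet alone that spread holds the strain levels, and with strain as a block it does not.

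Diet (HP minus HS), the interaction of strain and diet and, for pathway genes, strain were tested with limma 3.58.1 in R 4.3.3, over all genes, all mice sharing 1 estimate of the spread, with Benjamini-Hochberg adjustment at 0.05. The fits were tested on simulated data. The members, gene lists and the marker lists were chosen with earlier results of these data known. Named genes are the 6 members, the 3 genes with the highest Pearson r of strain means with each, the 3 measured genes on either side of each, and up to 3 genes of each pathway list by strain F and by diet p. The HS mouse of CC059/TauUnc closest to CC035/Unc, the HP mouse with low *Xist* and those with pancreatic enzymes were left out as alternatives, the last chosen after seeing the data. Pathway genes called only with strain as a block were named after their values were seen. Alternatives were strain as a block, scaling, filter, prior, array weights and leaving out strains or mice. Tables and figures used Python 3.11.15, pandas 2.3.3, numpy 2.4.6 and matplotlib 3.10.9.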

Additional observations from a re-analysis of the deposited data

Results flagged for a closer look

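Within strains of 4 to 6 mice, 8 of 132 groups of a gene and a strain held a mouse whose gap to its nearest neighbour was large for the range of the group, and chance gives about 1 in 20 of such groups, or 6.6. *Miox* gave 5 of them. A CC032/GeniUnc mouse on HS had 8.70, above 7.83 to 8.10 in the others of its strain, which is at the high level. At the low level, HP mice of CC001/Unc and CC063/Unc had 3.71 and 3.64, above 2.69 to 3.02 and 3.01 to 3.08 in the others. A CC011/Unc mouse on HS had 3.92, above 2.68 to 3.13, and a CC030/GeniUnc mouse on HP had 2.27, below 2.89 to 3.05. *Ctse* was 4.06 in a CC037/TauUnc mouse on HP, above 2.35 to 2.97 in the others. *Cyp46a1* was 6.52 in a CC001/Unc mouse on HP, above 4.96 to 5.50, and 7.30 in a CC028/GeniUnc mouse on HS, below 8.68 to 9.43. None of the 8 mice crossed from the level of its strain to the other.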

How the results depend on the processing

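With 1 diet taken alone, *Gdpd3*, *Miox*, *Ctse* and *Cyp46a1* had 2 levels and *Ntrk2* and *Lyplal1* did not. *Ctse* lost its 2 levels where a gap of at least 2 was asked for. Allowing overlap of mice, or leaving out the HS mouse of CC059/TauUnc closest to CC035/Unc, gave the same genes. Neither could have done otherwise for those with 2 levels, since the first loosens the rule and CC059/TauUnc borders none of their widest gaps. The widest gap of *Gdpd3* was 3.33 in HS mice alone and that of *Cyp46a1* 1.52 in HP mice alone. Leaving out each mouse in turn gave gaps of 3.60 to 3.86 for *Gdpd3*, 4.11 to 4.31 for *Miox*, 1.42 to 1.72 for *Ctse*, 1.80 to 2.22 for *Cyp46a1*, 0.60 to 0.98 for *Ntrk2* and 0.25 to 0.33 for *Lyplal1*. With strain as a block, 1 member was called by diet (*Cyp46a1*, 0.29) in place of 0, as were 5 in place of 2 genes of the *Gdpd3* list, 2 in place of 1 of the *Ctse* list, 4 in place of 0 of the *Cyp46a1* list, 1 in place of 0 of the *Ntrk2* list and 5 in place of 2 of the *Lyplal1* list. The diet difference of *Miox*, -0.03, became 0.020 with strain as a block and 0.10 with array weights, and that of *Ctse*, -0.15, became 0.079 with array weights, and, without the 4 mice with pancreatic enzyme genes, -0.34, none of them called. In fits with diet alone that left out each strain, the difference was 0.06 to 0.16 for *Gdpd3*, -0.053 to 0.0046 for *Miox*, -0.21 to -0.09 for *Ctse*, 0.26 to 0.34 for *Cyp46a1*, -0.24 to -0.13 for *Ntrk2* and -0.07 to -0.04 for *Lyplal1*. With strain as a block these ranges were 0.04 to 0.10, -0.0057 to 0.053 (-0.0033 without CC041/TauUnc), -0.18 to -0.10, 0.24 to 0.32, -0.29 to -0.18 and -0.069 to -0.051. *Ntrk2* passed the threshold without CC036/Unc (-0.29, adjusted p = 0.023). *Lyplal1* passed it without CC059/TauUnc (-0.069, adjusted p = 0.045) or without the HS mouse of that label closest to CC035/Unc (-0.071, adjusted p = 0.036). Over the fits that left out each strain, adjusted p reached 0.18 for *Ntrk2* and 0.21 for *Lyplal1*. Ranked by Spearman's rho, the 3 genes most like a member shared 0 genes with the Pearson list for *Gdpd3*, *Miox* and *Ctse*, 1 for *Cyp46a1* and *Ntrk2* and 2 for *Lyplal1*. The causes of these changes were not tested. The low levels of *Gdpd3*, *Miox* and *Ctse* lie near the array medians of 2.97 to 3.16, and no detection call per mouse was used.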
